A study of Mus musculus with 18 samples.

Results

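The epithelial sodium channel (ENaC) and its best known regulators were followed as 10 genes of the 24111 in the deposited count table: the channel subunits Scnn1a, Scnn1b and Scnn1g, the kinase Sgk1, the ubiquitin ligase Nedd4l, the receptors Nr3c2 and Nr3c1, the enzyme Hsd11b2, the leucine zipper protein Tsc22d3 and the protease Prss8. They were chosen by gene symbol, and all 10 were found in the count table and in the FPKM table. RNA was sequenced from mpkCCD11 cells, an immortalised mouse line from the cortical collecting duct with features of principal cells, all of 1 clone. Treated cells received 0.1 nM dDAVP (desmopressin, an agonist of the V2 vasopressin receptor) for 24 h in medium without serum, and control cells the same medium without dDAVP. All cells of both groups had first spent 24 h without serum, and before that had grown to confluence on permeable supports with serum, insulin, triiodothyronine, epidermal growth factor and dexamethasone, a glucocorticoid. No aldosterone is named in the protocols, and whether any hormone stayed in the medium without serum is not stated. There were 9 dDAVP and 9 control libraries, numbered 1 to 9 in each group. They are described together and in 3 sets of replicates, 1 to 3, 4 to 6 and 7 to 9, each with 3 dDAVP and 3 control libraries.

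ENaC carries sodium across the apical membrane of principal cells and is built from an alpha, a beta and a gamma subunit. Aldosterone bound to the mineralocorticoid receptor raises its activity, in part through Sgk1, a kinase that phosphorylates Nedd4-2, the product of Nedd4l, and so limits the ubiquitylation that removes the channel from the membrane. Hsd11b2 inactivates glucocorticoids and so shields the mineralocorticoid receptor from them. Proteases such as prostasin, encoded by Prss8, cleave the channel and raise its open probability, and vasopressin adds to sodium uptake through cyclic AMP.

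The genes lie on several chromosomes of mouse build GRCm38 (mm10). Scnn1g (chr7:121734479-121768475) and Scnn1b (chr7:121865038-121918514) are neighbours on the plus strand, 96.6 kb apart. Scnn1a lies at chr6:125320659-125344943, Sgk1 at chr10:21882184-21999903, Nr3c2 at chr8:76899442-77245012, Hsd11b2 at chr8:105518755-105523988, Tsc22d3 at chrX:140539528-140600659 and Prss8 at chr7:127925716-127930104. The 250 bases before the RefSeq start (GRCm38.p6) are printed for the neighbouring pair of subunits and for the Sgk1 start that carries a match to the glucocorticoid response element, the DNA sequence to which the glucocorticoid and mineralocorticoid receptors bind. Capitals mark that element (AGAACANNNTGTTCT) and GC boxes (GGGCGG or its reverse complement), and each line gives the sequence in the direction of transcription, on the plus strand.
Scnn1g, chr7:121734229-121734478: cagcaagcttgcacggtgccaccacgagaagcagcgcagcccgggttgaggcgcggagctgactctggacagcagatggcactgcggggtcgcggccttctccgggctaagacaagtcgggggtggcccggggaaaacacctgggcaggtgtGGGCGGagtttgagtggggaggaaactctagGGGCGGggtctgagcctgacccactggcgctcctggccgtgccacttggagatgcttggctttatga
Scnn1b, chr7:121864788-121865037: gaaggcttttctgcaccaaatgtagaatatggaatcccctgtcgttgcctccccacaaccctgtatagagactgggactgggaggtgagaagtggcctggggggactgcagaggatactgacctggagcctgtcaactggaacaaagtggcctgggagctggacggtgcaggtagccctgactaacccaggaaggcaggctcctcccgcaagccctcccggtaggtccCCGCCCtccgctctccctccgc
Sgk1, chr10:21993640-21993889: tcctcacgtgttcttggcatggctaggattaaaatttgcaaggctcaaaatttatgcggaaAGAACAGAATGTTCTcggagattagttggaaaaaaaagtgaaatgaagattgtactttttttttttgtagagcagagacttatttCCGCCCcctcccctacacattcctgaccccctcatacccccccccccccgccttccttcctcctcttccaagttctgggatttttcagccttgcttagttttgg

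The element in the Sgk1 window ran from 189 to 175 bases before that start (chr10:21993701-21993715). Exact matches to it were found in 3 of 32851 upstream windows of all genes (0.00913%). Its shorter half-site, TGTTCT on either strand, was found in 16.1% of all windows and 3 times in the Sgk1 window, of which 2 lie inside the full element. Searched on both strands, neither subunit window held the half-site or the cyclic AMP response element TGACGTCA, which 1.55% of all windows held. The Scnn1g window held 2 GC boxes and the Scnn1b window 1, as 32.7% of all windows held at least 1. A further 5 windows of Sgk1, 3 of Tsc22d3 and 1 of Nr3c2 were searched, and among these 2 of Sgk1 and 1 of Tsc22d3 held the half-site. Such a match describes the letters of the sequence and does not show binding. Scnn1a, Hsd11b2, Prss8, Nedd4l and Nr3c1 were not searched.

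Library totals ranged from 22.2 to 105.9 M counts (22.2 to 27.7 M for replicates 1 to 3, 27.3 to 37.8 M for 4 to 6 and 41.4 to 105.9 M for 7 to 9). Normalised CPM are counts per M of the library total after scaling by TMM (trimmed mean of M values), whose factors ranged from 0.306 to 3.16. The lowest factor was that of dDAVP 6, which also had the fewest genes detected (10282). It had 0.792% of its counts on ribosomal protein genes, against 4.71 to 9.37% in the others of replicates 4 to 6. Libraries of the other sets had up to 26.1%. A count of 0 allows up to 3 by counting error alone, which is 0.0142 to 0.359 normalised CPM. Of 9 principal cell markers, 6 averaged over 1 normalised CPM, among them Aqp2, Avpr2 and Gata3. The transcription factor gene Elf5 had 1 count in all, and Aqp3 and Kcnj1 had medians of 0.151 and 0 normalised CPM. Of 4 endothelial markers, Pecam1, Kdr and Cdh5 were at 0 in every library. Of 4 leukocyte markers, Cd68 had a median of 3.26 and reached 13.7 normalised CPM. Cd74 reached 8.20 from a median of 0, and Ptprc and Lyz2 reached at most 0.00723 and 0.564. Of 7 proximal tubule markers, Slc5a2 and Slc5a12 were at 0 in every library, while Lrp2 had a median of 3.86 and reached 10.8 normalised CPM. Of 8 intercalated cell markers, 4 averaged over 1 normalised CPM, with medians of 26.2 for Rhcg, 16.9 for Car2, 2.31 for Atp6v1b1 and 1.53 for Atp6v0a4. The other 4, Slc4a1, Slc26a4, Slc4a9 and Foxi1, had medians of 0 and reached at most 0.437, 0.0362, 0.532 and 0.224. The list summed to 48.2 to 77.3 normalised CPM with dDAVP and 16.9 to 67.7 in control. Of 4 thick ascending limb markers, Cldn10 was at 0 throughout. In replicates 1 to 3 the list summed to 0.0458, 30.6 and 36.4 normalised CPM in the 3 dDAVP libraries, in rising order, and to 0 in control. Umod alone reached 34.2 normalised CPM over the 18 libraries, from a median of 0. The 4 distal convoluted tubule markers in the same set summed to 0, 14.1 and 16.5 normalised CPM with dDAVP, in rising order. In control they summed to 0.0527 to 0.135. The part of these transcripts in the results was not tested.

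Per transcript length, prostasin was the most abundant of the 10 in most libraries, and the mineralocorticoid receptor was at or near 0. The order by median FPKM (fragments per kilobase of length and M counted reads) over the 18 libraries was Prss8 (34.7), Scnn1a (4.80), Hsd11b2 (4.66), Tsc22d3 (3.03), Nedd4l (2.83), Sgk1 (1.80), Nr3c1 (0.440), Scnn1b (0.300), Scnn1g (0.157) and Nr3c2 (0). Prss8 exceeded Scnn1a in 18 of 18 libraries, but Hsd11b2 exceeded Prss8 in dDAVP 5 (68.6 against 41.5 FPKM), control 5 (133 against 34.3) and control 6 (118 against 34.8). In replicates 4 to 6 the median of Hsd11b2 was 46.3 FPKM and that of Prss8 32.7 FPKM. Scnn1g exceeded Nr3c2 in 17 of 18 libraries. The neighbours in between were not ordered alike across libraries: Scnn1a exceeded Hsd11b2 in 10 of 18, Tsc22d3 exceeded Nedd4l in 6, Nr3c1 exceeded Scnn1b in 10 and Scnn1b exceeded Scnn1g in 13. Hsd11b2 exceeded Tsc22d3 in 14 of 18, Nedd4l exceeded Sgk1 in 13 and Sgk1 exceeded Nr3c1 in 13.

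**Figure D1:**
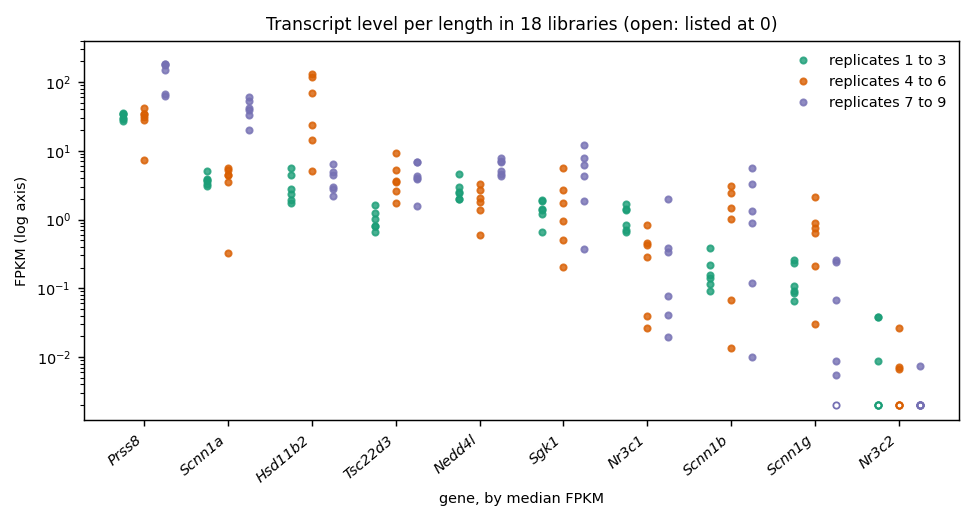
FPKM of the 10 genes in each of the 18 libraries. Prss8 has the highest median over all libraries, 34.7 FPKM, although Hsd11b2 lies above it in dDAVP 5, control 5 and control 6, and Nr3c2 lies lowest, at 0 in 11 of 18 libraries.

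The comparison of dDAVP with control asks whether treatment, as labelled, was accompanied by other levels of these transcripts. Aqp2, a principal cell marker, was at 1050, 2636 and 2423 normalised CPM in dDAVP 1 to 3, against 20.5 to 27.9 in control. In dDAVP 4 to 6 it was at 992, 1097 and 162, against 27.3 to 48.2 in control. In dDAVP 7 to 9 it was at 2756, 174 and 192, against 10.8, 37.2 and 251 in control, so the groups overlapped there. Whether the V2 receptor was activated alike in each library was not tested. None of the 9 genes with enough counts to test passed the threshold. In the fit of all 18 libraries, edgeR's quasi-likelihood test with Benjamini-Hochberg adjustment called 0 of the 9 genes at an adjusted p under 0.05, as it called 0 of all 10121 genes tested (0%). At an unadjusted p under 0.05 it gave 0 of the 9 and 2.15% of all genes. With the replicate set as a term, it again called 0 of the 9, against 8 of all 10121 genes (0.079%), among them Aqp2. Of the 9 genes, 5 had a positive log2 fold change in that fit and 4 a negative one, where 52.2% of all genes had a positive one, and their median was 0.06 against 0.02 over all genes. Within the sets, 0 of 8 genes were called in replicates 1 to 3, where 0.456% of all genes were (41 genes, or 101 with the replicate number as a block and 774 without dDAVP 1). Neither replicates 4 to 6 nor replicates 7 to 9 gave a call among the 9 genes or among all genes (0%), although the block gave 3 genes in replicates 7 to 9, none of them listed here, and leaving out dDAVP 7 gave 98. At an unadjusted p under 0.05, 1 of 8 genes stood in replicates 1 to 3 (10.5% of all genes), 2 of 9 in replicates 4 to 6 (4.61%) and 0 of 9 in replicates 7 to 9 (5.19%). Every dDAVP library lay above every control library for 0 of 8 genes in replicates 1 to 3 (7.47% of all genes), 1 of 9 in replicates 4 to 6 (5.37%) and 2 of 9 in replicates 7 to 9 (4.56%). Every dDAVP library lay below every control library for 1 of 8 (6.93%), 1 of 9 (4.39%) and 0 of 9 (4.43%). These 5 cases also held with counts scaled by library totals alone. Nr3c1 and Scnn1b in replicates 4 to 6, and Scnn1g in 7 to 9, passed the count filter through their higher group. Their places there, and Nr3c1 among the 2 of 9 at an unadjusted p under 0.05, describe these counts and are no test. In bulk RNA, fewer cells of a type and less RNA per cell cannot be told apart. Nothing in the labels says that libraries of a group came from separate cultures, so the p-values measure the spread between these libraries, which may be technical.

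**Figure D2:**
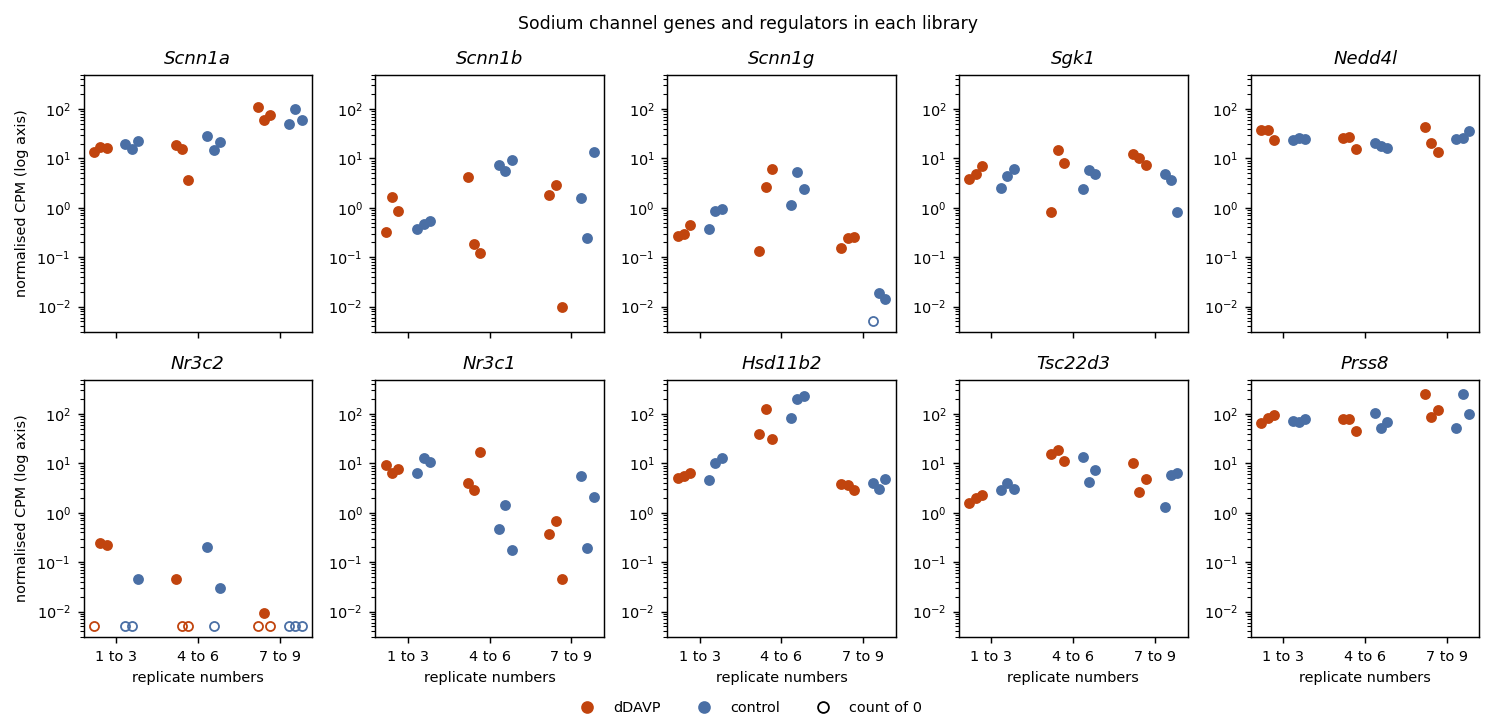
Normalised CPM of the genes in each library, with dDAVP libraries left of control libraries within each set of replicates. Hsd11b2 is high in replicates 4 to 6 of both groups, and Scnn1a is high in replicates 7 to 9 of both groups.

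Scnn1a, the alpha subunit without which the channel does not form efficiently, differed between sets of replicates more than between dDAVP and control. It was at 13.2, 16.7 and 16.4 normalised CPM in dDAVP 1 to 3, against 19.5, 15.4 and 22.4 in control 1 to 3. Replicates 4 to 6 gave 18.5, 15.6 and 3.71 normalised CPM with dDAVP, against 28.4, 15.1 and 21.5 in control. Replicates 7 to 9 gave 112, 58.9 and 77.6 normalised CPM with dDAVP, against 50.2, 102 and 59.9 in control. The groups overlapped in each set, while each of the 6 libraries of replicates 7 to 9 lay above each of the other 12 (50.2 to 112 against 3.71 to 28.4), a position held by 3.38% of all genes. With the set as a term, the log2 fold change of Scnn1a was -0.28 (SE 0.31, 95% interval -0.92 to 0.35, edgeR adjusted p = 0.939). It was -0.13 without dDAVP 6 and -0.45 without dDAVP 7. Scaling bears on its place within a set. In CPM by library total alone, dDAVP 7 to 9 had 146, 186 and 214 CPM, against 117, 137 and 69.3 CPM in control 7 to 9, and those groups did not overlap. On that scale dDAVP 4 to 6 had 12.1, 15.3 and 1.14 CPM, all below the 15.6, 18.5 and 19.9 CPM of control 4 to 6. Library totals alone put the median log2 fold change of all genes in replicates 7 to 9 at 0.54 and that in replicates 4 to 6 at -0.38.

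Scnn1b, the beta subunit, was low and uneven. It was at 4.29, 0.188 and 0.120 normalised CPM in dDAVP 4 to 6, all below the 7.36, 5.46 and 9.25 in control 4 to 6. Over all genes, 4.39% had every dDAVP library below every control library in that set. The fold change in replicates 4 to 6 was -2.32 on the log2 scale (SE 1.20). It was -1.83 (SE 1.08) without dDAVP 6 and -5.50 (SE 1.24) without dDAVP 4. Scnn1b had 95, 7 and 1 counts in dDAVP 4 to 6 and passed the count filter in that set through its control libraries. These values describe the counts, and no test within that set is given. In the other sets the dDAVP libraries did not all lie below the control libraries. Values in replicates 1 to 3 were 0.320, 1.63 and 0.845 normalised CPM with dDAVP and 0.367, 0.474 and 0.541 in control. Those in replicates 7 to 9 were 1.85, 2.89 and 0.00995 with dDAVP and 1.56, 0.247 and 13.5 in control, so that single libraries spanned the range of the whole study. The dDAVP 6 and dDAVP 9 values rest on 1 and 2 counts. The log2 fold change of Scnn1b with the set as a term was -1.09 (SE 0.90, 95% interval -2.95 to 0.76, edgeR adjusted p = 0.896). It was -0.23 without control 9 and -1.46 without dDAVP 4.

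Scnn1g, the gamma subunit, was the least abundant of the subunits and was not kept by the count filter in replicates 1 to 3. There it had 6, 5 and 8 counts in dDAVP libraries and 6, 16 and 21 counts in control libraries. It was at 0.135, 2.66 and 6.10 normalised CPM in dDAVP 4 to 6, against 1.13, 5.22 and 2.39 in control 4 to 6, and the groups overlapped. In replicates 7 to 9 it had 21, 51 and 52 counts with dDAVP, against 0, 2 and 1 in control, at library totals of 41.4 M and more. Every dDAVP library of that set lay above every control library, as 4.56% of all genes did. Scnn1g passed the count filter in that set through its dDAVP libraries alone, so its place there describes these counts and no test within that set is given. Pooled over the set, 124 counts with dDAVP and 3 counts in control gave a ratio of 20.5 in normalised CPM, which rests on those 3 control counts. In the fit of all 18 libraries, the interaction of set and dDAVP had an unadjusted p of 0.0131 and an edgeR adjusted p of 0.571. The level remained low in both groups, at 0.152, 0.242 and 0.259 normalised CPM with dDAVP, against at most 0.0190 in control. Its log2 fold change with the set as a term was 0.67 (SE 0.81, 95% interval -1.003 to 2.34, edgeR adjusted p = 0.945). It was 0.30 without control 7, 1.04 without control 5 and -0.43 when replicates 7 to 9 were left out.

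Set against each other per length, the subunits were unequal. Scnn1a made up a median of 91.1% of the summed subunit FPKM in dDAVP libraries and 90.6% in control libraries. In replicates 4 to 6 its share was lower, with a median of 76.7% with dDAVP and 59.5% in control, and the lowest share, 33.5%, was that of dDAVP 6. Scnn1g took 65.1% of the sum in that library. The log2 ratio of Scnn1b to Scnn1a, formed with 0.1 FPKM added to each, averaged -4.12 ± 2.25 with dDAVP and -3.33 ± 2.18 in control (SD, n = 9 each). The difference of -0.80 gave a two-sided exact permutation p of 0.461 (0.988 after adjustment over 3 ratios). It was -0.38 with 1 FPKM added and -0.17 without dDAVP 9. The ratio of Scnn1g to Scnn1a differed by 0.29 (exact permutation p = 0.820), from -4.61 ± 2.78 with dDAVP and -4.90 ± 2.61 in control, and by 0.0552 with 1 FPKM added. Neither difference exceeded the spread between libraries.

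**Figure D3:**
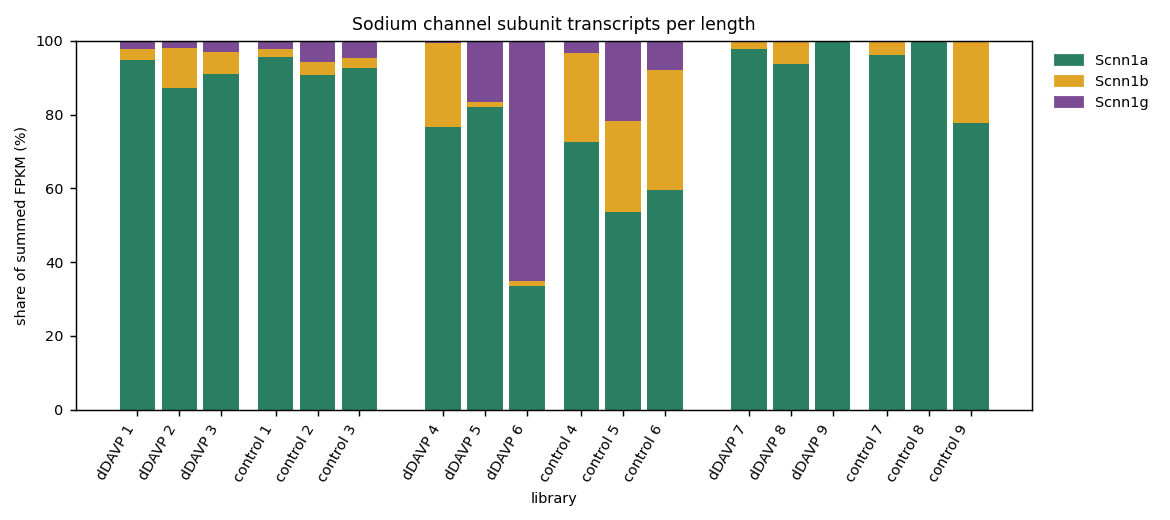
Share of each subunit in the summed FPKM of Scnn1a, Scnn1b and Scnn1g, per library, with dDAVP left of control. Scnn1a takes a median of 90.8% over all libraries, and replicates 4 to 6 show lower shares, down to 33.5% in dDAVP 6.

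Sgk1 had more dDAVP libraries on the high side than any other of the genes: in 8 of the 9 replicate numbers the dDAVP library was above the control library. It averaged 7.69 ± 4.32 normalised CPM in dDAVP libraries and 3.94 ± 1.75 in control libraries (SD, n = 9 each). In replicates 7 to 9 it was at 12.4, 10.0 and 7.37 normalised CPM with dDAVP, against 4.79, 3.60 and 0.842 in control. Every dDAVP library of that set lay above every control library, as for 4.56% of all genes. In replicates 1 to 3 it was at 3.80, 4.77 and 7.10 with dDAVP, against 2.51, 4.48 and 6.13 in control, where the groups overlapped. Replicates 4 to 6 gave 0.813, 14.8 and 8.13 with dDAVP and 2.39, 5.80 and 4.94 in control, so that dDAVP 4 was the lowest of all 18 libraries and dDAVP 5 the highest. The log2 fold change with the set as a term was 0.94 (SE 0.47), with a 95% interval of -0.03 to 1.90, an unadjusted p of 0.0580 and an edgeR adjusted p of 0.818. It was positive without each single library in turn (0.70 to 1.10). Equal numbers are not known to be cultures handled together, so the count of numbers is descriptive.

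Nedd4l, whose product ubiquitylates the channel, had the narrowest range for its level among the genes. It averaged 27.2 ± 10.5 normalised CPM in dDAVP libraries and 23.9 ± 5.72 in control libraries (SD, n = 9 each). Its lowest, median and highest values were 13.4, 25.5 and 43.8 with dDAVP and 16.1, 24.5 and 36.1 in control. The dDAVP libraries reached both ends of the range and overlapped with control. Its log2 fold change, with the set as a term, was 0.19 (SE 0.27, 95% interval -0.37 to 0.76, edgeR adjusted p = 0.954). It was 0.0187 without dDAVP 7 and at most 0.27 without another single library.

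Nr3c2, the mineralocorticoid receptor, was barely detected. It had 11 counts over the 9 dDAVP libraries and 5 over the 9 control libraries, was at 0 in 11 of 18 libraries, and reached 4 counts at most. The filter on low counts left it out of the fits reported here. Without that filter its log2 fold change with the set as a term was 0.88 (SE 1.32, edgeR adjusted p = 0.876). The pooled ratio was 1.37 (95% exact interval 0.440 to 5.04, counting error only), so a difference was not detectable at this depth. Of the 11 counts with dDAVP, 8 came from dDAVP 2 and dDAVP 3.

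Nr3c1, the glucocorticoid receptor, which also binds the elements that the mineralocorticoid receptor uses, was the more abundant receptor gene and had fold changes of opposite sign in 2 of the sets. Its values were 4.06, 2.96 and 17.3 normalised CPM in dDAVP 4 to 6, above the 0.464, 1.45 and 0.177 in control 4 to 6, as was so for 5.37% of all genes. Replicates 7 to 9 had 0.369, 0.684 and 0.0448 with dDAVP, against 5.50, 0.190 and 2.09 in control, where the groups overlapped. Replicates 1 to 3 had 9.24, 6.35 and 7.61 with dDAVP, against 6.42, 12.9 and 10.7 in control, again with overlap. The log2 fold changes in these sets were 3.44 (SE 1.16), -2.85 (SE 1.47, unadjusted p = 0.0741) and -0.42 (SE 0.34, unadjusted p = 0.236). In control 4 to 6 Nr3c1 had 7, 60 and 6 counts, and it passed the count filter in that set through its dDAVP libraries. Its value there describes these counts, and no test within that set is given. In replicates 7 to 9 and 1 to 3 Nr3c1 did not pass adjustment over all genes (edgeR adjusted p = 0.938 and 0.659). The test of the difference between sets, an interaction of set and dDAVP, gave an edgeR unadjusted p of 0.00205 and an adjusted p of 0.432. It called 0 of the 9 genes and 0% of all genes, while 6.63% of all genes had an unadjusted p under 0.05. DESeq2's interaction test called 91 of all 10121 genes, Nr3c1 among them (adjusted p = 0.0217). That was the one call of any of the 10 genes under any setting, and it takes in the 7, 60 and 6 counts of control 4 to 6. The fold change in replicates 4 to 6 lay between 2.13 and 4.75 when single libraries were left out, the lowest without dDAVP 6 (SE 1.29). In replicates 7 to 9 it lay between -3.74 and -1.46, with -1.46 without control 7. The ratio of Nr3c2 to Nr3c1 is not read, since Nr3c2 reached at most 0.0385 FPKM, under the 0.1 FPKM added to form it.

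Hsd11b2, the enzyme that inactivates glucocorticoids, was lower with dDAVP than in control in 7 of the 9 replicate numbers. This count is descriptive, since equal numbers are not known to be cultures handled together, and number 7 enters it on 3.88 against 3.93. The level of Hsd11b2 differed more between sets. It was at 40.3, 129 and 30.7 normalised CPM in dDAVP 4 to 6, against 81.3, 201 and 236 in control 4 to 6. Replicates 1 to 3 were at 5.17, 5.44 and 6.31 with dDAVP, against 4.64, 9.96 and 13.2 in control, and replicates 7 to 9 at 3.88, 3.70 and 2.94 with dDAVP, against 3.93, 3.06 and 4.79 in control. The groups overlapped in each set. Each of the 6 libraries of replicates 4 to 6 lay above each of the other 12 (30.7 to 236 against 2.94 to 13.2), a position held by 6.88% of all genes. The log2 fold change with the set as a term was -0.75 (SE 0.33, 95% interval -1.44 to -0.06), with an unadjusted p of 0.0339, the only one of the 9 genes under 0.05, where 6.03% of all genes were. It did not pass adjustment over all genes (edgeR adjusted p = 0.815). Left-out single libraries moved it between -0.92 and -0.60, and its edgeR unadjusted p was between 0.0510 and 0.0772 without dDAVP 1, 4 or 6 or without control 3, 5 or 6. With library totals alone that p was 0.167, and without replicates 4 to 6 the fold change was -0.43 (SE 0.37).

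**Figure D4:**
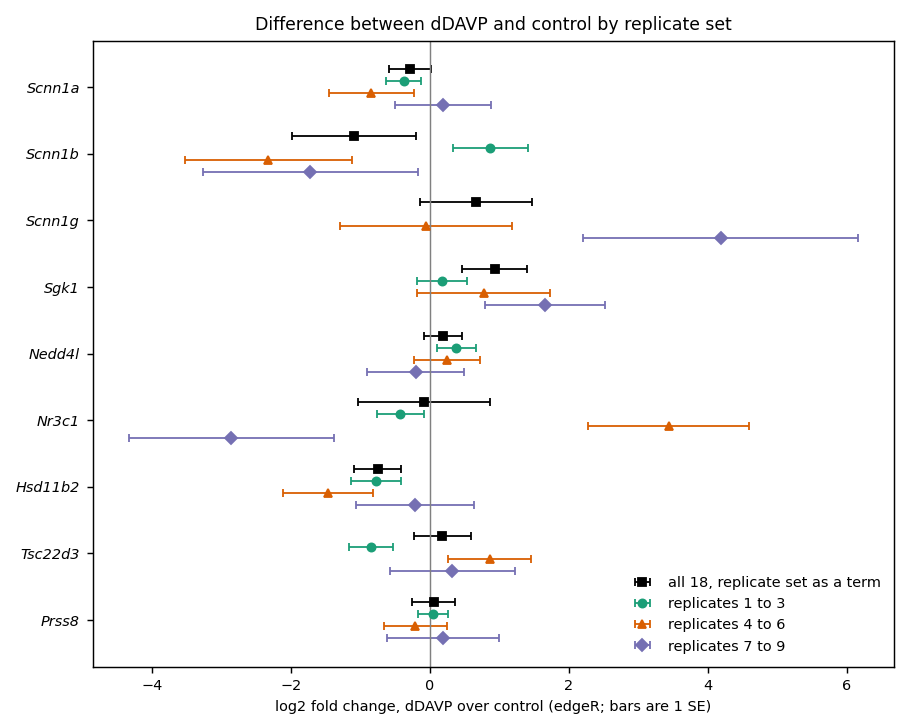
Log2 fold change of dDAVP over control with its standard error, for each gene tested with the set as a term and within each set. Nr3c1 lies at 3.44 in replicates 4 to 6 and at -2.85 in replicates 7 to 9, and none of the changes passed adjustment over all genes. The Scnn1g value in replicates 7 to 9 rests on 3 control counts. In replicates 4 to 6 the Nr3c1 value rests on 7, 60 and 6 control counts, and the Scnn1b value on 95, 7 and 1 dDAVP counts.

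Tsc22d3, which encodes the glucocorticoid-induced leucine zipper protein and is a target of both receptors, lay apart in 1 set. There, in replicates 1 to 3, it was at 1.60, 1.99 and 2.25 normalised CPM in dDAVP libraries, all below the 2.93, 3.95 and 3.02 in control libraries, as 6.93% of all genes were. Its log2 fold change there was -0.84 (SE 0.32, unadjusted p = 0.0210, edgeR adjusted p = 0.393). The values in replicates 4 to 6 were 15.8, 18.4 and 11.4 with dDAVP and 13.2, 4.15 and 7.42 in control, and in replicates 7 to 9 they were 10.4, 2.64 and 4.84 with dDAVP and 1.34, 5.95 and 6.53 in control. The groups overlapped in both of these sets, although with library totals alone dDAVP 7 to 9 (13.5, 8.34 and 13.3 CPM) lay above control 7 to 9 (3.11, 7.98 and 7.56 CPM), and their fold changes were positive, 0.86 (SE 0.60, and 1.31 without control 4) and 0.32 (SE 0.90, and -0.35 without dDAVP 7). The difference between the sets did not pass the interaction test (edgeR unadjusted p = 0.238). Over the sets together, with the set as a term, the log2 fold change was 0.18 (SE 0.41, 95% interval -0.66 to 1.02, edgeR adjusted p = 0.974).

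Prss8, the membrane-anchored protease that cleaves the gamma subunit, was abundant in each library. It averaged 101.4 ± 61.9 normalised CPM in dDAVP libraries and 94.9 ± 61.3 in control libraries (SD, n = 9 each). The lowest, median and highest values were 44.9, 83.7 and 257 with dDAVP and 52.2, 73.6 and 251 in control, with the highest value in dDAVP 7 and in control 8. Its log2 fold change with the set as a term was 0.06 (SE 0.31, 95% interval -0.57 to 0.69, edgeR adjusted p = 0.987).

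Other genes of the pathway were taken as 5 further lists. None of the members of any list was called in any of the 5 fits of dDAVP against control by edgeR. Over all genes, 0% were called in all 18 libraries and 0.079% with the set as a term. Within replicates 1 to 3, 4 to 6 and 7 to 9 it was 0.456%, 0% and 0%. At these shares, no call in lists of this size says little about their members. Of the ENaC proteases and their inhibitors, 8 of 11 were tested with the set as a term, 5 with a positive and 3 with a negative fold change, and the median log2 fold change was 0.23 against 0.02 over all genes. Spint2, a Kunitz inhibitor of membrane proteases and the most abundant of the list with Ctsb, averaged 112.6 ± 90.6 FPKM with dDAVP and 179 ± 214 FPKM in control (SD, n = 9 each). Ctsb, the lysosomal protease cathepsin B, averaged 96.0 ± 54.7 FPKM with dDAVP and 76.1 ± 29.8 FPKM in control. Tmprss4, a transmembrane serine protease that activates ENaC in expression systems, was chosen after its values were seen. It was at 11.4, 11.9 and 12.3 normalised CPM in dDAVP 1 to 3, against 4.83, 4.85 and 4.68 in control 1 to 3, and at 4.06, 5.39 and 11.8 in dDAVP 7 to 9, against 0.738, 1.65 and 0.842 in control 7 to 9. The groups did not overlap in these sets, where 7.47% and 4.56% of all genes had every dDAVP library above every control library. In replicates 4 to 6 all dDAVP libraries (7.13, 9.04 and 3.23) were below the control libraries (12.8, 13.5 and 10.2), as for 4.39% of all genes. The log2 fold changes were 1.24 (SE 0.27, edgeR adjusted p = 0.0882), 2.68 (SE 0.93, adjusted p = 0.890) and, in replicates 4 to 6, -0.99 (SE 0.64, adjusted p = 0.999). With the set as a term it was 1.07 (SE 0.50, adjusted p = 0.816), and the interaction had an edgeR adjusted p of 0.405. Because Tmprss4 was picked on these values, they describe it and are no test of it.

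The 14 genes of ENaC ubiquitylation and 14-3-3 proteins, which hold phosphorylated Nedd4-2 away from the channel, were all tested with the set as a term, 7 positive and 7 negative, with a median log2 fold change of -0.06. The 14-3-3 genes Ywhae and Ywhaq, the most abundant, had log2 fold changes of -0.19 (SE 0.36) and -0.73 (SE 0.31), with edgeR adjusted p = 0.967 and 0.815. Of 13 genes of the Sgk1 and WNK kinases, 12 were tested, 8 positive and 4 negative, with a median of 0.28. Akt1, a kinase related to Sgk1, and Wnk1, a kinase that acts upstream of sodium transporters, had log2 fold changes of 0.05 (SE 0.33) and -0.09 (SE 0.40). Of 17 receptor chaperones and coregulators, 16 were tested, 8 positive and 8 negative, with a median of 0.00. The chaperone gene Hspa8 averaged 1176 ± 1312 FPKM with dDAVP and 1172 ± 1343 FPKM in control (SD, n = 9 each), and Ptges3, a cochaperone of Hsp90, averaged 6413 ± 11156 FPKM with dDAVP and 4075 ± 6263 FPKM in control. Of 22 corticosteroid target genes, 16 were tested, 8 positive and 8 negative, with a median of 0.04. The metallothionein genes Mt1 and Mt2, which bind zinc and respond to glucocorticoids, had log2 fold changes of -0.16 (SE 0.48) and -0.03 (SE 0.41).

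The genes whose levels ran most like those of the subunits were found by the root mean square difference of log2 (normalised CPM + 1) over the 18 libraries, after each gene's mean was subtracted, among 9707 genes. For Scnn1a they were Capn1 (0.34), Vash1 (0.35) and Plod3 (0.39), where the median gene differed by 1.42. For Scnn1g they were Eml5 (0.37), Ttc5 (0.38) and Usp8 (0.40), against a median of 1.43. For Scnn1b no gene came as near, and Vmac (0.68), Fbxo32 (0.72) and Sccpdh (0.74) were the nearest, against a median of 1.57. The subunits were not near each other by this measure: Scnn1b ranked 5380 and Scnn1g 7025 of 9707 in likeness to Scnn1a. Of the other listed genes, Prss8 was the nearest to Scnn1a, at rank 698, and Sgk1 the nearest to Scnn1g, at rank 1248. These differences describe the 18 libraries, which share sets and depth.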

How the data were processed

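Raw counts per gene and FPKM were deposited by the authors as tables of 18 libraries. Per the labels' protocols, 20 ng of RNA and single-end reads of 50 bp were used, and both a low-input kit and a single-cell style protocol are described, with no word on the libraries each was used for. The submitters' processing notes list HTSeq, SAMtools, STAR 2.4.0.1 and build mm10. The strand setting and annotation are not given in the sources used here, so counts of genes with an overlapping antisense gene are uncertain. The deposited FPKM fit 1 length per gene, with library totals as depth. Positions came from GENCODE M21 (GRCm38) and upstream sequences from RefSeq (GRCm38.p6), which matched 5 of the 10 genes, in 12 windows.

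Counts were fitted with edgeR 4.0.16 (glmQLFit, TMM, filterByExpr, two-sided) over all genes kept. Alternatives were DESeq2 1.42.0, limma 3.58.1 (voom with sample quality weights, and log2 FPKM with 0.1 or 1 added), RLE factors, no filter, the replicate block and each library left out. Library totals alone and a set left out were added after seeing the data. The subunit and receptor ratios were tested by exact permutation over 48620 regroupings. The fits were tested on simulated counts.

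Same-numbered libraries of the 2 groups correlated in their deviations from the group means (r = 0.40 to 0.93), and after set means were removed r lay between -0.71 and 0.43. The labels do not say what a number marks. No library repeated another (lowest chi-square per degree of freedom 71.6). The genes, lists and sets were chosen with earlier results of these data known. Beside the 10, the rule named the genes called in a list, or otherwise its 2 with the highest mean FPKM, and for each subunit the 3 genes of most like pattern among those with a mean of at least 1 CPM. Tmprss4 and Cebpd lie outside the rule and were chosen after their values were seen, as were the Aqp2 values printed by library. The intervals of fold changes are those of the edgeR fits and rest on the spread between libraries. The interval of the pooled Nr3c2 ratio and the floors cover counting error alone, because amplified reads that carry no molecular identifier are not independent. Software was matplotlib 3.10.9, scipy 1.17.1, pandas 2.3.3, numpy 2.4.6, Python 3.11.15 and R 4.3.3.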

Additional observations from a re-analysis of the deposited data

Results flagged for a closer look

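In 8 of 26 groups of 9 libraries, 1 library lay far from the others by the gap of Dixon's test at the 95% level. Its rate of 1 in 20 holds for normal values of a single population. Here the normalised CPM were not logged and each group pools 3 sets of unlike level. The 8 are therefore not set against that rate. For Scnn1g it was dDAVP 6 at 6.10 normalised CPM, with the next dDAVP library at 2.66, and control 5 at 5.22, with the next control library at 2.39. For Prss8 it was dDAVP 7 at 257 normalised CPM, with the next at 121, and control 8 at 251, with the next at 105.6. Hsd11b2 was at 129 normalised CPM in dDAVP 5, with the next dDAVP library at 40.3. Nedd4l was at 36.1 normalised CPM in control 9, with the next control library at 25.9. Nr3c2 was at 0.199 normalised CPM in control 4, which is 3 counts, with the next at 0.0450. The log2 ratio of Scnn1b to Scnn1a was -9.12 in dDAVP 9, with the nearest dDAVP library at -5.42. Values of single genes within these groups also follow the set of replicates, and the part of the set in these gaps was not tested.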

How the results depend on the processing

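None of the 10 genes was called under any alternative of the 5 comparisons (lowest adjusted p 0.0979, for Scnn1b in replicates 1 to 3). DESeq2's interaction test called 1, Nr3c1, among 91 of all 10121 genes. The replicate block changed no call among them. Of the fold changes of single genes, 702 kept their direction under an alternative and 69 did not. Over all genes, the count called in the fit of 18 libraries was 12 with DESeq2, 1 with the replicate block, 11 with voom, 2 with FPKM plus 0.1 or 1, and 0 to 1 with a library left out (1 without control 9). With the set as a term it was 31 with DESeq2, 118 with voom, 5 with library totals, 4 with FPKM plus 0.1 or 1, 0 without replicates 1 to 3 or 4 to 6, and 4 to 9 with a library left out (4 without dDAVP 8). In replicates 1 to 3 it was 123 with DESeq2, 207 without filter, 101 with the replicate block and 13 to 774 with a library left out (774 without dDAVP 1, and 24, 14, 13 and 15 without dDAVP 2, control 1, control 2 and control 3). In replicates 4 to 6 it was 29 with DESeq2, 1 with library totals or without filter and 0 to 2 with a library left out (2 without dDAVP 6). In replicates 7 to 9 it was 93 with DESeq2, 7 with library totals, 30 without filter, 3 with the replicate block and 0 to 98 with a library left out (98 without dDAVP 7 and 6 without control 7). The interaction called 91 genes with DESeq2, 35 without filter and 0 to 45 with a library left out (45 without dDAVP 7).

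Directions that turned, in the fit of 18 libraries, were Nr3c1 with library totals (-0.36), voom (-0.00658) and FPKM plus 1 (-0.0668), Scnn1a with library totals (0.54), Scnn1g with DESeq2 (0.0746), RLE (0.0538) and the block (0.50), and Tsc22d3 with voom (-0.33). With the set term they were Nr3c1 with FPKM plus 0.1 (0.0545) and without replicates 1 to 3 (0.32) or 7 to 9 (1.56), Prss8 without 7 to 9 (-0.0117), Tsc22d3 with voom (-0.0210) and without 4 to 6 (-0.18), and Scnn1g with voom (-0.98), FPKM plus 0.1 (-0.0267) or 1 (-0.0824) and without 7 to 9 (-0.43). In replicates 4 to 6 they were Nedd4l with library totals (-0.0133) and Scnn1g with DESeq2 (0.0664) and RLE (0.0634), and in 7 to 9 Hsd11b2 (0.41) and Nedd4l (0.24) with library totals. With a library left out, fold changes that turned ranged as follows. In all 18 libraries: Nr3c1 -0.18 to 0.67, Prss8 -0.23 to 0.37, Scnn1a -0.47 to 0.27 and Scnn1g -1.11 to 0.69. With the set term: Nr3c1 -0.57 to 0.40, Prss8 -0.15 to 0.22 and Tsc22d3 -0.0797 to 0.29. In replicates 1 to 3: Prss8 -0.0118 to 0.13 and Sgk1 -0.10 to 0.45. In 4 to 6: Prss8 -0.36 to 0.0472 and Scnn1g -1.21 to 0.79. In 7 to 9: Nedd4l -0.80 to 0.13, Prss8 -0.38 to 0.93, Scnn1a -0.0798 to 0.50, Scnn1b -2.54 to 0.81 and Tsc22d3 -0.35 to 0.72. The ratio of Scnn1b to Scnn1a kept its sign, from -1.32 to -0.17, that of Scnn1g to Scnn1a ranged from -0.38 to 0.75 and that of Nr3c2 to Nr3c1 from -0.26 to 0.27. The cause was not tested.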

Other observations

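Cebpd, a transcription factor gene that responds to glucocorticoids, was chosen after its values were seen. It was at 0.0362 to 1.39 normalised CPM in the 9 dDAVP libraries, against 79.6 in control 9 and 1.46 in the next highest control library. Its log2 fold change over all 18 libraries was -3.72 (SE 1.18, edgeR adjusted p = 1.00). It was -1.18 (SE 1.14, edgeR adjusted p = 0.925) with the set as a term, and in replicates 1 to 3 it was 0.44 (SE 0.41, edgeR adjusted p = 0.703).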
